A study of Mus musculus with 9 samples.

Results

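Genes of pre-mRNA splicing regulators were followed in the mouse ovary over the days when the follicular antrum first forms. They were found by gene name in the deposited expression tables and are 40 of the 52025 genes listed there. They comprise 10 SR proteins, 2 TRA2 proteins, 19 heterogeneous nuclear ribonucleoproteins (hnRNPs), 3 polypyrimidine tract binding (PTB) proteins, 4 CELF, MBNL and RBFOX proteins and 2 RBM proteins. The ovaries came from Kunming mice at postnatal day (PD) 14, 15 and 16, with 3 libraries a day and 9 in all, and the labels name no treatment or allele and no difference between the days other than age. In the labels the samples are ovary by tissue but granulosa cells by source. The paper's methods state that ovaries were collected, and its limitations section names whole ovaries for the work in vivo. A figure caption gives 3 biologically independent ovaries for the transcriptome. All 15 oocyte marker genes, including Gdf9 and Zp3, lay above a mean of 1 FPKM on at least 1 day, and their summed level was 1624 to 2007 FPKM per library on PD14, 2077 to 2185 FPKM on PD15 and 1489 to 1624 FPKM on PD16. The 11 granulosa cell markers summed to 2816 to 3660 FPKM, most of it from Inha at a mean of 2152 FPKM. FPKM is a fragment count divided by exon length and by the number of mapped fragments, so it is a level per length. From the steps between low values, a depth of 20.4 to 28.7 M fragments per library was derived. PD16 replicates 1 and 2 stood apart in having 14590 and 14638 genes above 1 FPKM, against 14818 to 14923 in the other 7 libraries.

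Splicing removes introns from the primary transcript, and regulators bound to exons or introns decide which splice sites the spliceosome uses. SR proteins carry RNA recognition motifs and a domain rich in arginine and serine, and typically promote the use of the exons they bind. hnRNPs coat nascent transcripts, and several of them repress exons, although the outcome depends on where they bind. Many of these regulators limit their own level by including an exon with a premature stop codon, called a poison exon, which sends their own transcript to nonsense-mediated decay. In the ovary, the SR protein SRSF3 is known to be needed by oocytes. In whole tissue more cells of a type and more RNA per cell cannot be told apart.

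Tra2a, Hnrnpm and Mbnl2 rose from PD14 to PD16, and Tra2b had the largest difference without passing the test. The stretch around the transcription start of these 4 genes and of Srsf7, the SR protein gene with the largest difference, is shown to give the regulatory sequence of the genes the results turn on. Each window runs from 250 bases before to 50 bases after a RefSeq start on build GRCm38.p6, 5′ to 3′ on the strand of the gene, at chr6:49264003-49264302 (minus strand) for Tra2a, chr16:22265956-22266255 (minus strand) for Tra2b, chr17:33685409-33685708 (minus strand) for Hnrnpm, chr14:120275419-120275718 (plus strand) for Mbnl2 and chr17:80207256-80207555 (minus strand) for Srsf7. The Hnrnpm start lies inside the gene as placed by the GENCODE M21 annotation (chr17:33646233-33686860), not at its 5′ end. Capitals mark every match, on either strand, to 6 short motifs: the TATA box TATAAA, the CCAAT box CCAAT, the GC box GGGCGG, the ETS core CCGGAAG, the cyclic AMP response element TGACGTCA and the E-box CACGTG. The last 2 read the same on both strands, and no motif contains another.
Tra2a: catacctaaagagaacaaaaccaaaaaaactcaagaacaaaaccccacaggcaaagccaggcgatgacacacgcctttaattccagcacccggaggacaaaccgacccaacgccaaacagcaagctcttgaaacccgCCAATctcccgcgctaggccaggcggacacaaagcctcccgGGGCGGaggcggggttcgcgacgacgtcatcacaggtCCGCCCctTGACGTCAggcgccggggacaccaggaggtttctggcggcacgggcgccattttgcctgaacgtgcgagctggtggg
Tra2b: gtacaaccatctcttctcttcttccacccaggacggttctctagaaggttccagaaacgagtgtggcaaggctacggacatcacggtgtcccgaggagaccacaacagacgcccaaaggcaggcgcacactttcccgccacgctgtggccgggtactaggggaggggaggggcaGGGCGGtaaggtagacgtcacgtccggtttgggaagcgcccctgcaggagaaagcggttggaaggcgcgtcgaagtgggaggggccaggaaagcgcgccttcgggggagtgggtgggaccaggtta
Hnrnpm: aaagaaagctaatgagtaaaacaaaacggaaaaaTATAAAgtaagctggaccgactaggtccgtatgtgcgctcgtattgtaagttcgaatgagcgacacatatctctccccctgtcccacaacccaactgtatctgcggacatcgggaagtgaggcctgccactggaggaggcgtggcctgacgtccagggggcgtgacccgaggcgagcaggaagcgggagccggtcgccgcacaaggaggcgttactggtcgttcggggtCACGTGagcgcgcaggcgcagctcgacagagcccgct
Mbnl2: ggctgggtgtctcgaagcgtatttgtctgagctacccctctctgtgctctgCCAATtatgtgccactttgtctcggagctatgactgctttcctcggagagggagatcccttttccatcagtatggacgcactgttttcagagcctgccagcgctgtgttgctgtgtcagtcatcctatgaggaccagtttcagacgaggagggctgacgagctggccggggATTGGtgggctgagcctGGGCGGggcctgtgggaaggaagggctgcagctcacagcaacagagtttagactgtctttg
Srsf7: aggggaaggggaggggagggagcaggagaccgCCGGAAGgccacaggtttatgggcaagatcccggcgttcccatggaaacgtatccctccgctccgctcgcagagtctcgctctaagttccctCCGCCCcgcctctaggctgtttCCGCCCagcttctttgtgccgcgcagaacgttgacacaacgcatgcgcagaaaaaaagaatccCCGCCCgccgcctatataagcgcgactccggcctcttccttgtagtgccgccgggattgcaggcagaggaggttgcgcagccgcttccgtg

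RefSeq windows were matched for 36 of the 40 genes, with 50 windows because some genes have several starts, and were set against all 32851 windows of 27025 genes of every kind. The member windows were rich in CpG dinucleotides, with a median of 28 per window against 7 over all windows. The counts were 25 for Tra2a, 22 for Tra2b, 27 for Hnrnpm, 28 for Srsf7 and 10 for Mbnl2. A GC box was present in 39 of 50 member windows (78%) and in 35.7% of all windows. The CCAAT box was in 26 (52%) against 37.4%, the ETS core in 10 (20%) against 8.86% and the E-box in 7 (14%) against 7.15%. A TATA box was found in 6 (12%) against 13.6%. The cyclic AMP response element was in 1 member window (2%), that of Tra2a, against 1.79%. These matches describe the sequences and were not tested for binding or for a part in any change.

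At the level of transcripts, 39 of the 40 genes had a mean above 1 FPKM on at least 1 day and entered the test. Their mean levels over the 9 libraries ran from 3.98 to 463 FPKM with a median of 53.7 FPKM, and 34 lay above 10 FPKM, 21 above 50 FPKM and 9 above 100 FPKM. The spread among the 3 libraries of a day, as a coefficient of variation, had a median of 5.83% over the genes and ran from 2.91% for Hnrnpa1 to 26.9% for Hnrnpu. Most of these genes were therefore measured tightly, and the differences between days described here are small.

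**Figure D1:**
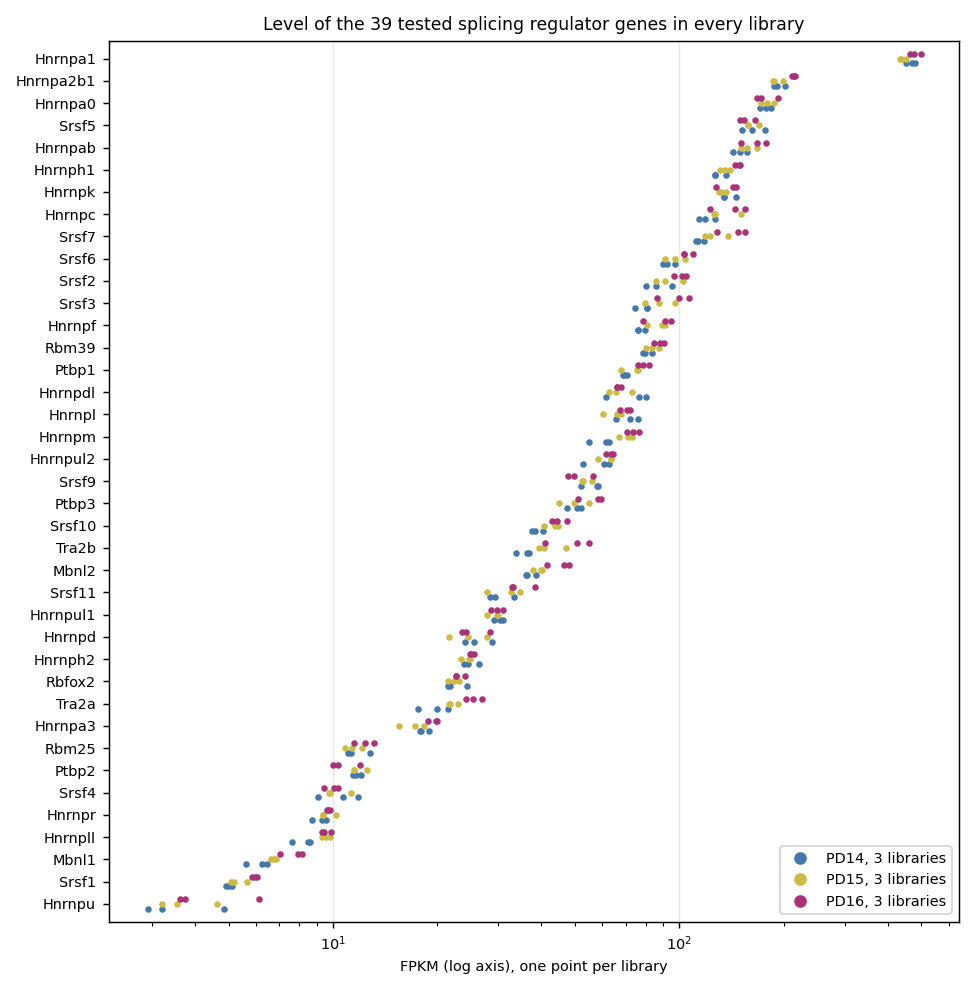
FPKM of the 39 tested genes (log axis), one point per library, coloured by day and ordered by mean level. Levels run from 3.98 FPKM for Hnrnpu to 463 FPKM for Hnrnpa1, and the 3 days lie close together for most genes.

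The most abundant transcript per length was Hnrnpa1, whose product binds exonic and intronic silencers and shuttles between nucleus and cytoplasm. It was at 453, 478 and 470 FPKM on PD14, 453, 438 and 435 FPKM on PD15 and 498, 476 and 464 FPKM on PD16. All PD15 libraries were at or below the lowest PD14 library, while PD14 and PD16 overlapped, and the log2 difference from PD14 to PD16 was 0.04 (adjusted p = 0.825, limma), or -0.0077 after quantile normalization. Hnrnpa2b1, a close relative that also sorts RNAs in the cytoplasm, came next with 192, 202 and 188 FPKM on PD14, 199, 187 and 188 FPKM on PD15 and 216, 214 and 212 FPKM on PD16. Its PD16 libraries lay above all 6 earlier ones, yet the log2 difference of 0.14 against PD14 did not pass the test (adjusted p = 0.23). Hnrnpa0 followed with 171, 178 and 184 FPKM on PD14, 187, 179 and 173 FPKM on PD15 and 172, 193 and 168 FPKM on PD16, and its 3 days overlapped.

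The gene with the lowest listed level was Celf1, which encodes a regulator that also shortens poly(A) tails. It was listed at 0 in 8 libraries and at 0.0049 FPKM, the value of 1 fragment, in PD14 replicate 2. Sf1, which encodes the branch point binding protein of the core spliceosome, was likewise listed at 0 in all 9 libraries. Whether these zeros are true levels or failed estimates was not tested. Celf1 did not reach a mean of 1 FPKM on any day and was left untested. Hnrnpu, the gene of a scaffold protein of the nuclear matrix, was at 2.92, 3.22 and 4.86 FPKM on PD14, 3.54, 4.62 and 3.2 FPKM on PD15 and 6.12, 3.75 and 3.62 FPKM on PD16. Its values scattered within each day, with the highest value in PD16 replicate 1, and the log2 difference from PD14 to PD16 was 0.23 with an SE of 0.201. Srsf1, the founding SR protein, was at 5, 5.1 and 4.92 FPKM on PD14, 5.63, 5.18 and 5.07 FPKM on PD15 and 6.06, 5.96 and 5.84 FPKM on PD16. These low levels still rested on 572 to 849 fragments per library for Srsf1, as derived from FPKM, exon length and depth.

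Between PD14 and PD16, 3 of the 39 tested genes rose and none fell (adjusted p under 0.05, limma on log2(FPKM + 1), Benjamini-Hochberg over 15495 genes). Over all genes tested, 2.36% rose and 1.89% fell. The 3 genes were Tra2a, Hnrnpm and Mbnl2. None of them was called when every gene above 0 was tested, when libraries of the 2 days only were fitted or with the replicate number as a block, and after quantile normalization Srsf7 and Tra2b were called in their place. Over all genes, calls in both directions numbered 172, 320, 227 and 728 in these alternatives, in that order, against 659 in the main fit. The test was applied to all 9 libraries together, and a log2 change on this scale understates the change of genes with low FPKM. The members' log2 differences ran from -0.13 to 0.44 with a median of 0.14, beside a median of 0.01 over all genes tested. Of the 39, 30 were higher and 9 lower on PD16, and 14 (35.9%) had an unadjusted p under 0.05, as did 3531 of the 15495 genes (22.8%). Over all genes tested 52.2% were higher on PD16. The 3 libraries of PD16 lay above the 3 of PD14 for 17 members, while this was so for 15.0% of all genes tested. The opposite, all PD16 libraries below all PD14 libraries, was found for 0 members and for 13.5% of all genes. Genes of a family vary together within a library, so these counts are descriptions and no test was made over the list. Scaled by median ratios, 15 members were higher without overlap and 0 lower, against 14.1% and 14.3% of all genes, and after quantile normalization 13 were higher and 0 lower, against 14.2% and 14.5%.

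Markers of the cell types in the ovary moved over the same days. Of the 15 oocyte markers, 11 were lower on PD16 than on PD14 with a median log2 difference of -0.23, and 1 of the 15, Bmp15, a growth factor gene of the oocyte, rose. Of the 11 granulosa cell markers, Amh and Esr2 rose and Cyp19a1 and Kitl fell, and the median was -0.09. The 7 markers of epithelium and oviduct summed to 36.1 to 38.8 FPKM on PD14 and 25.6 to 28.9 FPKM on PD16, and Krt19 and Lgals7 among them fell. All 5 endothelial markers were lower, with sums of 56.6 to 59.7 FPKM on PD14 and 50.9 to 53.2 FPKM on PD16, and none passed the test. Lower values on PD16 were also found for 4 of 6 theca and interstitial markers (median -0.25), 6 of 7 stromal markers (median -0.09) and 5 of 6 tested blood and immune markers (median -0.23), with none called. The part of these shifts in the differences of the splicing genes was not tested.

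**Figure D2:**
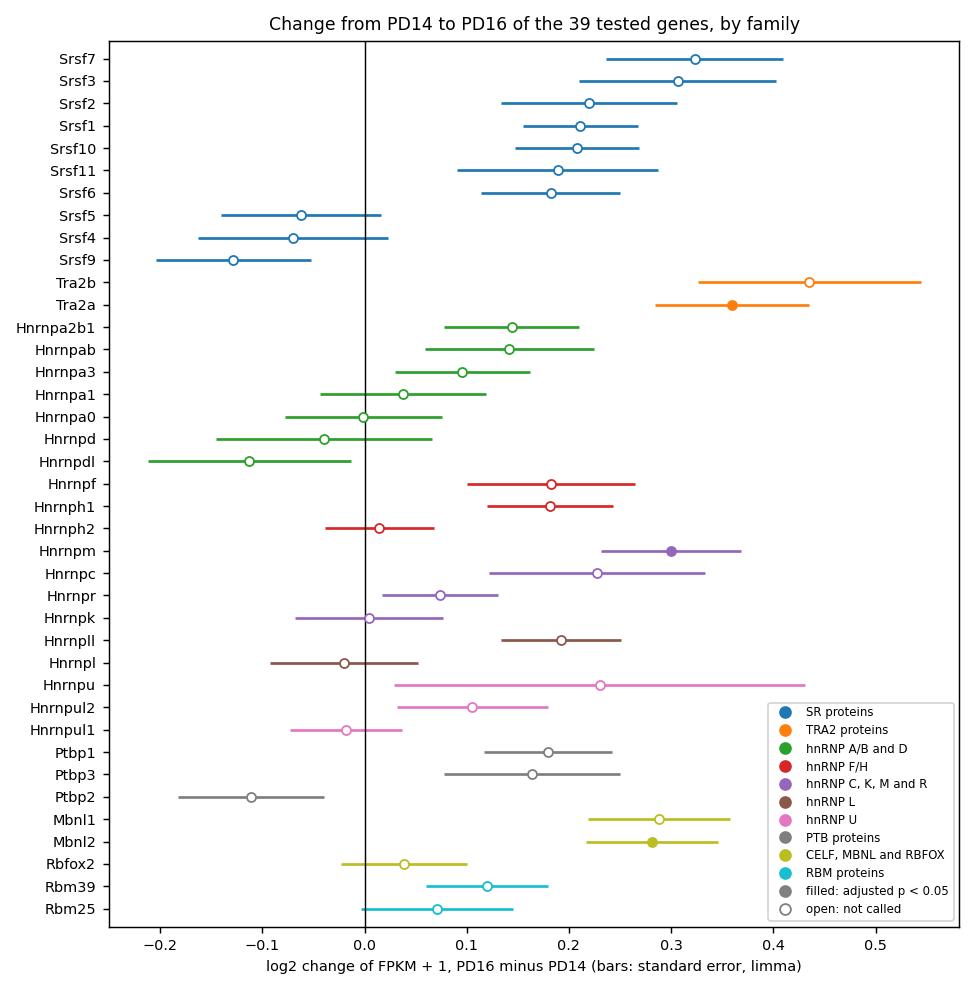
Log2 change of FPKM + 1 from PD14 to PD16 for each of the 39 tested genes, grouped by family, with the standard error from limma. Filled points (Tra2a 0.36, Hnrnpm 0.30, Mbnl2 0.28) have an adjusted p under 0.05, and the others run from -0.13 to 0.44.

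The TRA2 proteins, splicing activators built like SR proteins that bind GAA-rich exonic enhancers, had the largest differences. Tra2a, at chr6:49243924-49264033 on the minus strand (this and later gene positions are from GENCODE M21, build GRCm38), was at 21.4, 20 and 17.6 FPKM on PD14, 21.6, 21.7 and 22.9 FPKM on PD15 and 25.3, 24.2 and 26.9 FPKM on PD16. Every PD15 library lay above every PD14 library and every PD16 library above every PD15 library. Its mean went from 19.7 ± 1.96 to 22.1 ± 0.738 and 25.5 ± 1.38 FPKM (SD, n = 3), a log2 change of 0.36 with an SE of 0.076 from PD14 to PD16 (adjusted p = 0.0337, limma). This call held without PD14 replicate 1 or PD15 replicate 3 and was lost without any one of the other 7 libraries (adjusted p from 0.0529 to 0.101), with the log2 change between 0.28 and 0.42.

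Tra2b, at chr16:22244549-22266005 on the minus strand, was at 36.7, 33.7 and 36.4 FPKM on PD14, 40.7, 39.3 and 47.1 FPKM on PD15 and 54.9, 50.7 and 40.9 FPKM on PD16. PD14 lay below all later libraries, and PD16 replicate 3 fell among the PD15 libraries. The log2 difference from PD14 to PD16 was 0.44 with an SE of 0.109 and did not pass the test (adjusted p = 0.0565, limma). Without PD16 replicate 3 it was 0.56 and passed (adjusted p = 0.0272), and without any one of the other 8 libraries it was 0.35 to 0.46 and did not (adjusted p from 0.053 to 0.167). The summed level of 10 proliferation markers was 265 to 283 FPKM on PD14, 310 to 333 FPKM on PD15, 360 and 362 FPKM in PD16 replicates 1 and 2 and 274 FPKM in PD16 replicate 3. None of the 10 markers passed the test from PD14 to PD16, although 9 of them were higher with a median log2 difference of 0.21, and their part in the differences of the splicing genes was not tested. The ratio of Tra2b to Tra2a was 1.82 ± 0.22 on PD14, 1.92 ± 0.13 on PD15 and 1.93 ± 0.36 on PD16 (SD, n = 3), so it differed between days by less than the spread among libraries.

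**Figure D3:**
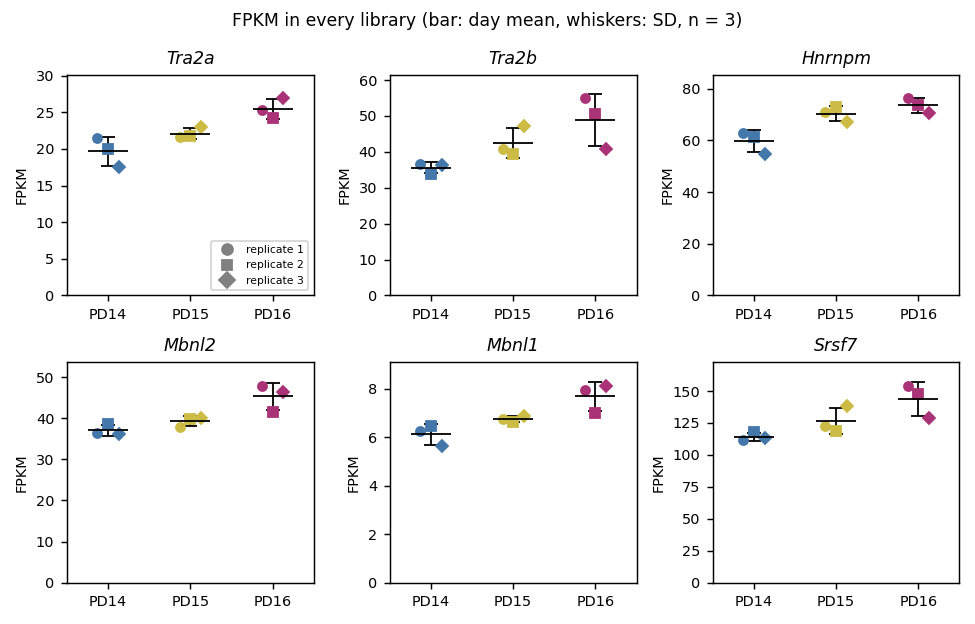
FPKM of Tra2a, Tra2b, Hnrnpm, Mbnl2, Mbnl1 and Srsf7 in every library, with the day mean (bar) and SD (whiskers, n = 3), on axes that start at 0. Every PD16 library lies above every PD14 library for all 6 genes, and PD16 replicate 3 is the lowest of its day for Tra2b, Srsf7 and Hnrnpm.

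Among the SR proteins, 7 of 10 genes were higher on PD16 than on PD14 and 3 were lower, with a median log2 difference of 0.20, and none passed the test. An unadjusted p under 0.05 was found for 6 of the 10, against 22.8% of all genes. Srsf7, which takes part in mRNA export as well as splicing, was at 112, 118 and 113 FPKM on PD14, 123, 119 and 138 FPKM on PD15 and 154, 148 and 129 FPKM on PD16. All its PD14 libraries were below all later ones, and the log2 difference to PD16 was 0.32 with an SE of 0.087 (adjusted p = 0.0688, limma). Without PD16 replicate 3 it was 0.40 and passed (adjusted p = 0.0477), and without any one of the other 8 libraries it was 0.27 to 0.34 and did not (adjusted p from 0.0556 to 0.198). Srsf3, the smallest SR protein and an export adaptor too, was at 74.6, 80.4 and 80.5 FPKM on PD14, 87.2, 79.6 and 97.2 FPKM on PD15 and 107, 99.7 and 86.5 FPKM on PD16. PD14 and PD16 did not overlap, and the log2 difference was 0.31 with an adjusted p of 0.1 from limma. The same libraries were high for both genes, with PD15 replicate 3 the highest of its day and PD16 replicate 3 the lowest.

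Srsf1, described above for its low level, had all PD16 libraries above all others and a log2 difference of 0.21 from PD14 (adjusted p = 0.0654, limma). Srsf10, an SR-like protein that acts as a repressor when dephosphorylated, went from 38.8 ± 1.39 to 43.1 ± 1.97 and 45 ± 2.26 FPKM (SD, n = 3; adjusted p = 0.0847 from limma for PD16 against PD14). Srsf2, an activator located in nuclear speckles, had means of 86.9, 93.1 and 101 FPKM, and Srsf6 had 92.8, 97.3 and 105 FPKM. For both, PD16 lay above PD14 without overlap, with log2 differences of 0.22 and 0.18. Srsf11 had a log2 difference of 0.19 with overlapping days. The 3 SR protein genes with lower values on PD16 were Srsf9 (-0.13), Srsf4 (-0.07) and Srsf5 (-0.06), with adjusted p from 0.349 to 0.695 and overlapping libraries.

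In the hnRNP families, 14 of 19 genes were higher on PD16 and 5 were lower, with a median log2 difference of 0.10. Hnrnpa1, Hnrnph2 and Hnrnpk turned to slightly lower after quantile normalization, and Hnrnpk also after median-ratio scaling. Of the 19, 3 (15.8%) had an unadjusted p under 0.05, against 22.8% of all genes, and Hnrnpm alone passed the test. Hnrnpm, at chr17:33646233-33686860 on the minus strand, encodes a protein that binds GU-rich intronic sequence. It was at 62.6, 61.4 and 54.7 FPKM on PD14, 70.9, 72.9 and 67.1 FPKM on PD15 and 76.3, 73.6 and 70.6 FPKM on PD16. PD14 lay below all later libraries, and most of its difference was present by PD15. Its mean went from 59.6 ± 4.26 to 70.3 ± 2.93 and 73.5 ± 2.85 FPKM (SD, n = 3), a log2 change of 0.30 with an SE of 0.069 from PD14 to PD16 (adjusted p = 0.0445, limma). The call held without PD15 replicate 3 and was lost without any one of the other 8 libraries (adjusted p from 0.0626 to 0.143). In the annotation 14.7% of its exon bases are shared with March2 on the same strand, which was at a mean of 7.43 FPKM, so fragments there may have been counted for either gene.

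The related C, K and R genes did not pass the test. Hnrnpc, whose product packages nascent transcripts and competes with U2AF, had means of 120, 135 and 141 FPKM with its highest value in PD16 replicate 1, and a log2 difference of 0.23 from PD14 to PD16. Hnrnpr, at 9.18 ± 0.455 FPKM on PD14 (SD, n = 3), had a log2 difference of 0.07 with no overlap between PD14 and PD16. Hnrnpk, which binds C-rich sequence, had a log2 difference of 0.00 with means of 138, 133 and 139 FPKM.

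In the A/B and D families, 4 of 7 genes were higher and 3 lower on PD16, and none passed the test. Hnrnpab had a log2 difference of 0.14 and Hnrnpa3 of 0.10, while Hnrnpdl (-0.11) and Hnrnpd (-0.04) were lower with overlapping days. Hnrnph1 and Hnrnpf, which bind G-rich runs, each had a log2 difference of 0.18 (adjusted p = 0.123 and 0.224, limma), and Hnrnph2, their X-linked relative, had 0.01. PD16 lay above both earlier days in every library for Hnrnph1, whose means were 130, 136 and 148 FPKM.

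Hnrnpl and Hnrnpll are paralogues whose proteins bind CA-rich sequence, and neither gene passed the test. Hnrnpl was at 65.6, 76 and 72 FPKM on PD14, 66.3, 67.8 and 60.3 FPKM on PD15 and 67.6, 72.1 and 70.5 FPKM on PD16, and its days overlapped. Hnrnpll was at 8.49, 8.58 and 7.62 FPKM on PD14, 9.57, 9.79 and 9.29 FPKM on PD15 and 9.43, 9.89 and 9.29 FPKM on PD16, so that PD14 lay below all later libraries. Its log2 difference of 0.19 with an SE of 0.058 did not pass the test (adjusted p = 0.0935, limma). The ratio of Hnrnpl to Hnrnpll was 8.67 ± 0.88 on PD14, 6.78 ± 0.25 on PD15 and 7.35 ± 0.21 on PD16 (SD, n = 3), with the 3 PD14 ratios above the 6 later ones, and this ratio was not tested. Of the U family, Hnrnpul2 had a log2 difference of 0.11 and Hnrnpul1 of -0.02.

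The PTB proteins repress exons that lie beside pyrimidine-rich tracts. Ptbp1, the form of most tissues, was at 69, 70.6 and 69.2 FPKM on PD14, 76, 75.3 and 67.8 FPKM on PD15 and 78.8, 82 and 76.2 FPKM on PD16. PD16 lay above all earlier libraries, and the log2 difference of 0.18 from PD14 did not pass the test (adjusted p = 0.129, limma). Ptbp2, the form best known from neurons and testis, was at 11.4, 12 and 11.6 FPKM on PD14, 12.6, 11.5 and 11.5 FPKM on PD15 and 10.3, 10 and 12 FPKM on PD16, a log2 difference of -0.11. Ptbp3 was at 47.4, 52 and 50.8 FPKM on PD14, 49.5, 45 and 54.8 FPKM on PD15 and 59.3, 58.4 and 51.1 FPKM on PD16. In the last 2 genes PD14 and PD16 overlapped through PD16 replicate 3. The ratio of Ptbp1 to Ptbp2 was 5.95 ± 0.09 on PD14, 6.17 ± 0.35 on PD15 and 7.39 ± 0.95 on PD16 (SD, n = 3), and it was highest in PD16 replicate 2.

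Muscleblind-like proteins bind YGCY motifs and are known for the splicing of the adult isoforms of many transcripts. Mbnl2, at chr14:120275669-120431697 on the plus strand, was at 36.5, 38.6 and 36.2 FPKM on PD14, 37.9, 39.8 and 40.1 FPKM on PD15 and 48, 41.6 and 46.5 FPKM on PD16. PD16 lay above all earlier libraries, and PD14 and PD15 overlapped. The mean went from 37.1 ± 1.34 to 39.3 ± 1.19 and 45.3 ± 3.32 FPKM (SD, n = 3), a log2 change of 0.28 with an SE of 0.065 from PD14 to PD16 (adjusted p = 0.0449, limma). The call held without PD16 replicate 2 and was lost without any one of the other 8 libraries (adjusted p from 0.0535 to 0.145).

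Mbnl1 was at 6.26, 6.47 and 5.63 FPKM on PD14, 6.77, 6.62 and 6.86 FPKM on PD15 and 7.93, 7.02 and 8.13 FPKM on PD16. Its 3 days were ordered without overlap, as for Tra2a. The log2 difference from PD14 to PD16 was 0.29 with an SE of 0.069 (adjusted p = 0.0507, limma), and it passed without PD16 replicate 2 (0.35, adjusted p = 0.0498) and not without any one of the other 8 libraries (0.24 to 0.32, adjusted p from 0.0618 to 0.155). The ratio of Mbnl2 to Mbnl1 was 6.07 ± 0.31, 5.82 ± 0.21 and 5.89 ± 0.17 on the 3 days (SD, n = 3). Rbfox2, which binds GCAUG, had a log2 difference of 0.04. Rbm39, a U2AF-related coactivator, and Rbm25, a regulator of splice site choice, had 0.12 and 0.07, and neither passed the test.

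The step from PD14 to PD15 brought 0 calls among the 39 genes by limma, as did every alternative fit, and 3 (7.69%) had an unadjusted p under 0.05, against 14.7% of all genes. Over all genes tested, 0.336% rose and 0.342% fell on this step. The median log2 difference of the members was 0.06, or 0.026 without PD15 replicate 1 and 0.039 without PD14 replicate 3. On this step 24 were higher and 15 lower, and the libraries did not overlap for 8 that were higher and 1 that was lower. Among all genes these shares were 10.4% and 10.2%. The 8 genes were Srsf7, Srsf10, Tra2a, Tra2b, Hnrnpf, Hnrnpm, Hnrnpll and Mbnl1, with log2 differences from 0.12 for Mbnl1 to 0.24 for Tra2b and Hnrnpm, and the 1 lower gene was Hnrnpa1 (-0.08). Cell type markers also differed on this step. The summed FPKM of 7 blood and immune cell markers was 105 to 137 on PD14 and 48.3 to 64.6 on PD15, and Hba-a1, a haemoglobin gene, fell (log2 change -1.35, adjusted p = 0.0381, limma). Haemoglobin genes made up most of this sum, with Hba-a1 at means of 87.4 and 33.7 FPKM and Hbb-bs at 29.9 and 15.3 FPKM. The red cell gene Alas2 was also lower (log2 difference -0.64). Of the immune cell genes, Csf1r had -0.17, Cd68 -0.03 and Adgre1 0.09, and Ptprc was not tested. Of 15 oocyte markers 12 were higher on PD15, with sums of 1624 to 2007 and 2077 to 2185 FPKM, and Nlrp5 alone of them rose (log2 change 0.76, adjusted p = 0.0377, limma). All 10 markers of proliferating cells were higher, with sums of 265 to 283 and 310 to 333 FPKM, and 0 passed the test. Lower values on PD15 were found for 5 of 6 theca and interstitial markers (median log2 difference -0.43, sums of 1559 to 2191 and 1134 to 1716 FPKM), 5 of 7 stromal markers (median -0.09), 7 of 11 granulosa cell markers (median -0.11), all 5 endothelial markers (median -0.12) and all 4 tested markers of epithelium and oviduct (median -0.17), with none called. Hsd3b1, at means of 1785 FPKM on PD14 and 1291 FPKM on PD15, made up most of the theca and interstitial sums. The part of these cells in the members' values on this step was not tested.

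From PD15 to PD16, 0 of the 39 genes were called by limma or by any alternative fit, and 6 (15.4%) had an unadjusted p under 0.05, against 14.1% of all genes. Over all genes tested 0.432% rose and 0.297% fell. The members' median log2 difference was 0.06, or 0.13 without PD15 replicate 1. Of the members 32 were higher and 7 lower. The PD16 libraries lay above the PD15 libraries for 10 members (9.85% of all genes) and below for 0 (9.73% of all genes). Those 10 were Srsf1, Tra2a, Hnrnpa1, Hnrnpa2b1, Hnrnpa3, Hnrnph1, Hnrnph2, Ptbp1, Mbnl1 and Mbnl2. All 15 oocyte markers were lower on PD16 than on PD15, and Zp2 and Nlrp5 fell (log2 change -0.61 and -0.72, adjusted p = 0.0427 and 0.0439, limma). Higher values on PD16 than on PD15 were found for 5 of 6 tested blood and immune cell markers (median log2 difference 0.24), 4 of 6 theca and interstitial markers (0.11), 5 of 7 stromal markers (0.08) and 7 of 10 proliferation markers (0.03), and none of these passed the test. Among them Hba-a1 had a log2 difference of 0.82 with no overlap between the days (adjusted p = 0.142, limma). Of the other lists, 6 of 11 granulosa cell, 3 of 5 endothelial and 3 of 4 tested epithelium and oviduct markers were lower, with none called. The part of these markers' cells in the members' values was not tested.

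**Figure D4:**
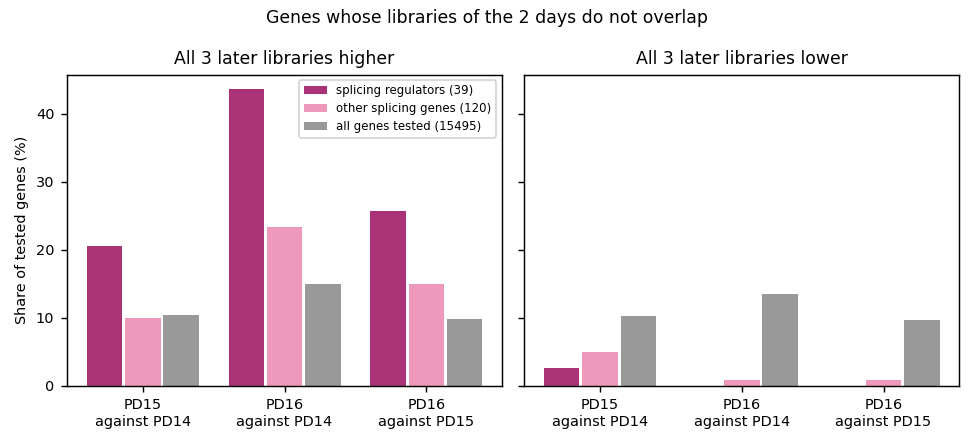
Share of tested genes whose 3 later libraries all lie above (left) or all below (right) the 3 earlier ones, for each pair of days, among the 39 splicing regulators, 120 other splicing genes and all 15495 genes tested. For PD16 against PD14 the shares above are 43.6%, 23.3% and 15.0%, and those below are 0%, 0.833% and 13.5%.

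In an F test among the 3 days, 0 members were called by limma, 12 had an unadjusted p under 0.05 and the lowest adjusted p was 0.0654, for Tra2a. Of all genes 3.03% were called and 22.3% had an unadjusted p under 0.05. Without PD16 replicate 3, 1 member was called, beside 236 of all genes tested. By day means, 21 of the 39 members (53.8%) were higher on each later day, against 24.6% of all genes tested, and 4 (10.3%) were lower on each later day, against 19.6%. The comparisons share libraries, so these orders follow in part from the differences already given.

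The libraries of a day did not move as one. In PD14 replicate 1, 2 members lay above their own mean over the 9 libraries, in replicate 2 it was 18 and in replicate 3 it was 11. On PD15 the numbers were 22, 10 and 15, and on PD16 they were 29, 34 and 25. PD16 replicate 1 held the highest of the 9 values for 15 members and PD14 replicate 3 the lowest for 11. PD16 replicates 1 and 2 were also the libraries with the fewest genes above 1 FPKM. Without PD16 replicate 1, 0 members were called from PD14 to PD16, and without PD16 replicate 2 the calls were Mbnl1 and Mbnl2. Over all genes tested, 92 were called without PD16 replicate 1 and 310 without PD16 replicate 2, against 659 with all 9 libraries. PD15 replicate 3 and PD16 replicate 1, each the highest of its day for Tra2b, Srsf7 and Srsf3, had the highest total FPKM (342803 and 338237, against 308363 to 331616 in the others) and the highest share of it in the 10 most abundant genes (8.97% and 8.71%, against 7.55% to 8.45%). The part of these library features in the members' values was not tested. PD16 replicate 3 was the lowest of its day for 21 members, among them Tra2b, Srsf3, Srsf7, Hnrnpc and Hnrnpf, and the highest of its day for 11, among them Tra2a, Srsf11, Srsf6, Mbnl1 and Rbm39.

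**Figure D5:**
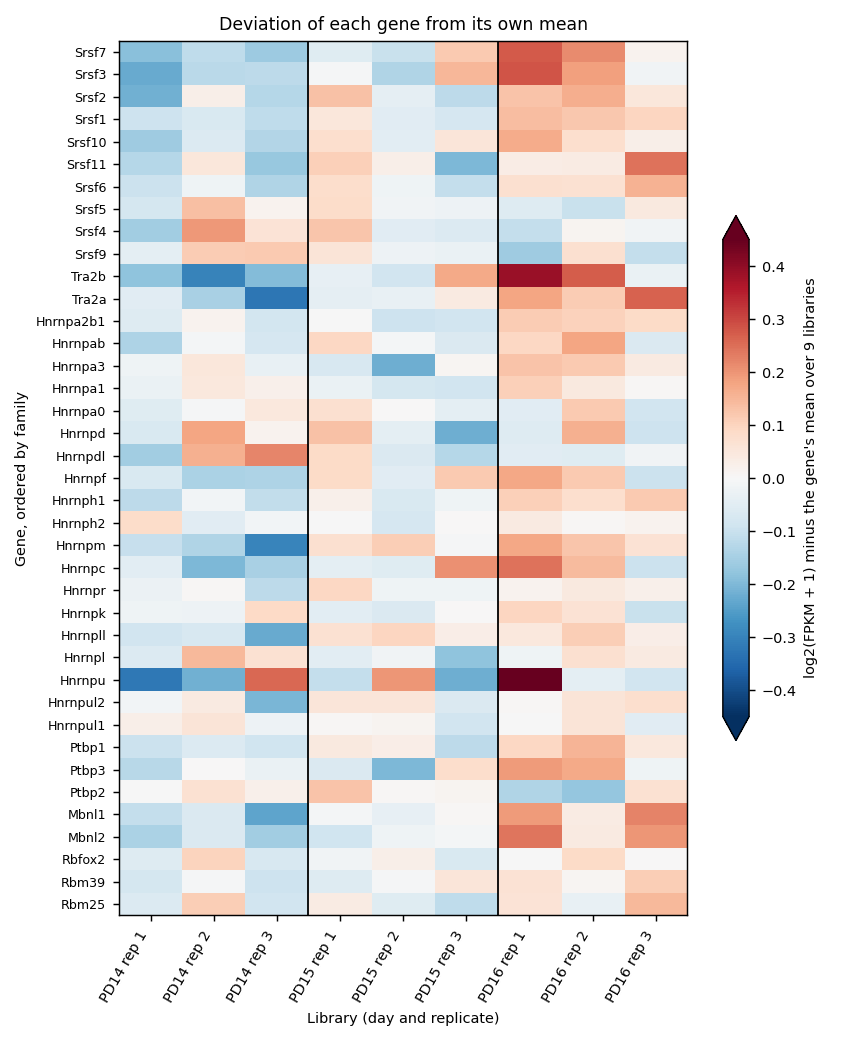
Log2(FPKM + 1) minus the gene's own mean over the 9 libraries, for the 39 tested genes (rows, by family) and the 9 libraries (columns), with colours limited at 0.45. PD16 replicates 1 and 2 are above the mean for 29 and 34 genes and PD14 replicate 1 for 2.

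These values merge all isoforms of a gene. In the GENCODE M21 annotation 25 of the 40 genes (62.5%) have a transcript marked for nonsense-mediated decay, against 28.1% of the 12444 protein-coding genes tested, and 31 (77.5%) have one with a retained intron, against 57.6%. The members have a median of 10 annotated transcripts and the protein-coding genes tested a median of 5, and the shares were not compared at a matched number of transcripts. Transcripts marked for decay are annotated for 9 of 10 SR protein genes and for both TRA2 genes, but for none of the 3 hnRNP F/H genes and none of the 4 CELF, MBNL and RBFOX genes. A gene-level FPKM does not separate productive transcripts from such forms. Exon bases shared with a gene on the opposite strand reach 43% in Srsf4, 29.1% in Hnrnpab, 26.5% in Hnrnpf, 25.3% in Srsf2 and 20.7% in Ptbp1, and the library kit does not mark strand.

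Other genes of the splicing pathway were taken from a list of 127, of which 120 were tested. Of these, 3 rose from PD14 to PD16 and none fell, 97 were higher and 23 lower, and the median log2 difference was 0.08. An unadjusted p under 0.05 was found for 20 of the 120 (16.7%), below the 22.8% of all genes, and the 3 calls stand beside 2.36% of all genes that rose. The count of calls in this list was 0 when every gene above 0 was tested and 0 with the replicate block. It was 1 with libraries of the 2 days only and 2 after quantile normalization. Over all genes, calls in both directions then numbered 172, 227, 320 and 728, in that order, against 659 in the main fit. Sfpq, a paraspeckle protein, was at 88.4, 89.6 and 75.5 FPKM on PD14, 108, 103 and 92.3 FPKM on PD15 and 110, 117 and 120 FPKM on PD16, a log2 change of 0.45 (adjusted p = 0.0286, limma). Tardbp, which encodes the UG-binding protein TDP-43, was at 46.7, 50 and 46.6 FPKM on PD14, 53.4, 50.6 and 55.2 FPKM on PD15 and 62.3, 57.7 and 57.5 FPKM on PD16, a log2 change of 0.30 (adjusted p = 0.0294). Rbm10, a regulator that favours exon skipping, was at 26.1, 24.4 and 24.4 FPKM on PD14, 28, 26.9 and 28.1 FPKM on PD15 and 31, 30.6 and 28.7 FPKM on PD16, a log2 change of 0.26 (adjusted p = 0.0324). In all 3 genes the PD16 libraries lay above the PD14 libraries, and in each the call was lost without PD14 replicate 1 or 3 or without PD16 replicate 1 or 2 (adjusted p from 0.065 to 0.113). Further losses came without PD16 replicate 3 for Tardbp and Sfpq (adjusted p = 0.0502 and 0.0647) and without PD14 replicate 2 or PD15 replicate 1 for Rbm10 (adjusted p = 0.0774 and 0.0515).

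By step of the pathway, 43 of 50 tested core spliceosome genes were higher on PD16 than on PD14 with a median log2 difference of 0.09, and none passed the test. An unadjusted p under 0.05 was found for 10 of them (20%), against 22.8% of all genes, of which 52.2% were higher. In the list of SR protein kinases and nuclear importins, 7 of 10 tested genes were higher with a median of 0.11 and none passed. Of the 44 further regulators tested, 35 were higher with a median of 0.07, the 3 called genes among them. Of 16 genes for nonsense-mediated decay and the exon junction complex, which marks spliced junctions, 12 were higher with a median of 0.06 and none passed. The genes not tested, with means of at most 1 FPKM on every day, were Sf1, Srpk3, Nova2, Celf6, Rbfox1, Rbfox3 and Rbm24.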

How the data were processed

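The authors sequenced RNA of ovaries on PD14, PD15 and PD16 (3 libraries a day, unstranded kit, Illumina HiSeq). The submitters' processing notes name HISAT2 2.0.5 and mm10, and the counter and annotation are not given in the sources used here. The authors deposited 1 table of FPKM values per library, normalized by exon length and mapped fragments. FPKM is not a count, so limma 3.58.1 (R 4.3.3, trend on) was applied to log2(FPKM + 1) of 15495 genes with a mean above 1 FPKM on any day, in 1 fit of the 9 libraries with no covariate, Benjamini-Hochberg adjusted at 0.05. The fit was run on simulated data in which genes varied independently, so that run does not cover genes that vary together within a library. Alternatives were 2 pseudocounts, 2 filters, 2 scalings, other limma settings, the replicate block and leaving out each library. GENCODE M21 (50462 of 52025 identifiers matched), bedtools 2.31.1 and minimap2 gave positions, overlaps and copies. Depth was derived from the steps between low FPKM values. At that depth, between 94.3% and 94.7% of low values per library were whole fragments within 0.02. No pair of libraries was identical. The members and lists were chosen with earlier results of these data known. Values of every library are given for members called in any test, the 6 with the largest PD14 to PD16 difference, the 3 most and 3 least abundant, and the TRA2, PTB, MBNL and hnRNP L paralogues, and for called genes of the other splicing list.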

Additional observations from a re-analysis of the deposited data

How the results depend on the processing

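The members' direction from PD14 to PD16 was steadier than the calls. The median log2 difference ranged from 0.11 to 0.17 over the alternatives. The count of 3 called members remained with pseudocounts of 0.1 and 0.5, median-ratio scaling and a robust prior variance, with the same genes. It became 5 for genes with a mean above 5 FPKM on a day (Tra2b and Mbnl1 added), 1 with no intensity trend (Tra2a) and 0 when every gene above 0 was tested, when libraries of the 2 days only were fitted and with the replicate block. After quantile normalization Srsf7 and Tra2b were called in place of the 3. Without 1 library the count ranged from 0 to 2. Over all genes tested, calls in both directions numbered 659 in the main fit. They were 633 to 677 with the 2 pseudocounts, median-ratio scaling and the robust prior variance. They were 642 of 9735 genes above 5 FPKM, 594 with no intensity trend and 172 of 33957 with every gene above 0. With the 2 days only they were 320, with the replicate block 227, after quantile normalization 728 and without 1 library 92 to 660. For the 3 called genes of the other list, the count was 6 with the filter at 5 FPKM, 0 with every gene above 0, 1 with the 2 days only, 0 with the replicate block and from 0 to 3 without 1 library. Among the days, the count without 1 library was 0 to 1. The cause of these differences was not tested. Replicate numbers did not pair the libraries: deviations from the day mean correlated from -0.214 to 0.159 between libraries of 1 number and from -0.196 to 0.211 between others. The replicate block gave 0 members called on every contrast.

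Signs turned for values near 0: quantile normalization gave -0.0077 for Hnrnpa1, -0.0097 for Hnrnph2 and -0.042 for Hnrnpk (PD16 against PD14) and -0.012 for Hnrnpa0 (PD15 against PD14), and median-ratio scaling gave -0.0031 for Hnrnpk (PD16 against PD14). The change from PD14 to PD16 was recomputed for all 39 tested members, and the other contrasts for the 17 tested members given by library. Without 1 library, log2 differences spanned 0 for PD15 against PD14 in Hnrnpa0 (-0.016 to 0.042), Hnrnpa2b1 (-0.047 to 0.011), Hnrnpu (-0.071 to 0.225), Ptbp2 (-0.022 to 0.038) and Ptbp3 (-0.082 to 0.058). They spanned 0 for PD16 against PD14 in Hnrnpa0 (-0.063 to 0.038), Hnrnpd (-0.118 to 0.028), Hnrnph2 (-0.015 to 0.053), Hnrnpk (-0.033 to 0.064), Hnrnpl (-0.077 to 0.027), Hnrnpul1 (-0.047 to 0.0084) and Srsf4 (-0.165 to 0.010), and for PD16 against PD15 in Hnrnpa0 (-0.077 to 0.023), Hnrnpll (-0.026 to 0.015) and Hnrnpu (-0.020 to 0.301). With 3 libraries a day, single libraries decide most calls.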

Other observations

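Several members have near-identical copies elsewhere in the genome, defined as at least 95% identity over at least 300 aligned bases, and 10 members have at least 1. Hnrnpa3 has 23 copies, of which 22 are pseudogenes, and their summed level of 255 FPKM was far above the 18.3 FPKM of Hnrnpa3 itself. The copies of Hnrnpa3 summed to means of 246, 252 and 268 FPKM on PD14, PD15 and PD16. For Hnrnpk the listed copies summed to 79.8 FPKM beside 137 FPKM, for Srsf3 to 37.2 FPKM beside 88 FPKM, for Srsf5 to 19.5 FPKM beside 160 FPKM and for Tra2b to 9.44 FPKM beside 42.3 FPKM. The copies of Tra2b were at 7.87, 7.8 and 7.44 FPKM on PD14, 9.58, 9.57 and 10.6 FPKM on PD15 and 13.3, 9.82 and 8.97 FPKM on PD16, so PD14 lay below all later libraries there too. How fragments were divided between a gene and its copies is not given in the sources used here, so the levels of these members are uncertain. Tra2a, Hnrnpm and Mbnl2 have no such copy.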
